A study of Homo sapiens with 12 samples.

Results

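The translation initiation and elongation factors of MIA PaCa-2, an established human pancreatic carcinoma line, were followed through knockdown of the RNA-binding proteins Musashi1 and Musashi2. They were the genes whose symbols begin EIF1 to EIF6 (leaving out the eIF2α kinases, EIF2AK), EEF1, EEF2 or PABPC with a number, and whose description does not name a pseudogene. Of the 24528 genes listed, 73 met this rule, 5 of them antisense RNAs, and 61 of the 73 had enough counts to be tested among 15021 genes. Of the other 12 genes, 5 were listed at 0 in all 12 libraries and 7 had at most 6 counts in any library. The 5 were EEF2K, EEF2KMT, PABPC1L2B, PABPC1L2B-AS1 and PABPC5-AS1, and the 7 were EIF1AX-AS1, EIF2B5-AS1, EIF4E1B, EIF4E3, PABPC1L2A, PABPC4L and PABPC5. Messenger RNA levels were measured by sequencing in 4 groups of 3 libraries each. All 4 groups were the same line, infected for 72 h with shRNA viruses and sorted, with 200 ng of total RNA going into each Illumina library.

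The double knockdown cells received both viruses and were sorted as positive for both fluorescent tags. The Msi1 knockdown cells carried an shRNA against MSI1 marked by GFP, and the Msi2 knockdown cells carried one against MSI2 marked by Tomato Red. The control shRNA cells received a scrambled sequence, and the labels give neither its tag nor its sorting gate. The labels also do not say whether the 3 libraries of a group came from separate infections, so p-values measure the spread between these libraries. In bulk RNA, fewer cells carrying a transcript and less of it per cell cannot be told apart.

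Translation begins when eIF2 brings the initiator tRNA to the small ribosomal subunit, where eIF1, eIF1A and the large eIF3 complex hold it ready for scanning. The eIF4 factors bind the cap of the mRNA: eIF4E holds the cap, eIF4A unwinds the leader, eIF4G joins them to eIF3 and to the poly(A)-binding protein, and the 4E-binding proteins block eIF4E. Elongation factors then deliver aminoacyl-tRNA and move the ribosome, and in mouse neural cells Musashi1 is known to bind poly(A)-binding protein and compete with eIF4G for it.

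Total counts were 39853171 to 56122207 in double knockdown libraries, 26759360 to 38922394 in Msi1 knockdown, 39692117 to 53014534 in Msi2 knockdown and 10948191 to 35043671 in control shRNA libraries. MSI1 had 2.01, 1.45 and 1.66 CPM (the depth-normalised count, per 1e6 counts after edgeR's TMM scaling of libraries) in double knockdown, 1.62, 1.94 and 1.96 in Msi1 knockdown, 7, 5.37 and 6.04 in Msi2 knockdown and 4.93, 4.53 and 4.13 in control shRNA libraries. MSI2 had 11.1, 12.2 and 12 CPM in double knockdown, 52.1, 56.5 and 53.4 in Msi1 knockdown, 15.1, 17.3 and 12.6 in Msi2 knockdown and 81.2, 80.7 and 86.3 in control shRNA libraries. Each targeted gene was thus lowest where its own shRNA was used, and MSI2 was also lower in Msi1 knockdown (log2 change -0.61 ± 0.08 SE, edgeR adjusted p = 6.82e-06). MSI1 was higher in Msi2 knockdown (0.41 ± 0.13, edgeR adjusted p = 0.0244) and was not called when control replicate 2 (0.0796) or 3 (0.0717) or Msi2 replicate 1 (0.121) was left out. The keratins KRT8 and KRT18 and vimentin were abundant, EPCAM, CDH1 and KRT7 averaged under 1 CPM in each group, and the summed levels of 5 blood cell genes (0.806 to 1.31 CPM) and 4 neuronal genes of packaging cells (at most 0.18 CPM) were low, with CD3E and INA at 0. Endothelial genes summed to 20.4 to 22.9 CPM in double knockdown, 27.5 to 34.5 in Msi1 knockdown, 13.1 to 13.6 in Msi2 knockdown and 7.23 to 8.36 in control shRNA, carried by CDH5. Genes of the line's epithelial origin summed to 3023 to 3441 CPM in double knockdown (3 called higher) and 2318 to 2482 in control shRNA. KRT8 and KRT18 carried this sum, and 1 gene of the list was called higher in Msi1 knockdown and 2 lower in Msi2 knockdown. Fibroblast genes summed to 288 to 326 CPM in double knockdown (3 called lower) and 404 to 485 in control shRNA, carried by COL1A2. Mitochondrial transcripts took 5.27 to 6.05% of counts in double knockdown, 6.38 to 7.85% in Msi1 knockdown, 5.71 to 7.48% in Msi2 knockdown and 6.59 to 7.89% in control shRNA. The part of these shifts in the results was not tested. Libraries of 1 group differed along a common axis that held 54.1% of the within-group variance of 9818 genes, and the double knockdown libraries lay at one end of it (scores of -1.54 to -1.06, against -0.39 to 1.38 in the other 9). On that side, long transcripts were relatively low: the slope of level on log2 transcript length was -0.134 to -0.066 in double knockdown and -0.026 to 0.072 in the other 9 libraries.

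Per unit of transcript length, the elongation factors were the most abundant of these genes. In control shRNA cells, EEF1A1, which delivers aminoacyl-tRNA, averaged 9482 ± 1015 TPM, a length-normalised level computed from the counts and annotated lengths that sums to 1e6 in each library (SD, n = 3). EEF1G, a subunit of its exchange factor, followed at 3459 ± 195, the translocase EEF2 at 2766 ± 104 and the poly(A)-binding protein PABPC1 at 1503 ± 79 TPM. The helicase EIF4A1 (1267 ± 29) and its paralogue EIF4A2 (1151 ± 33) were close to each other, while the cap-binding EIF4E was at 18.4 ± 1 and the scaffold EIF4G1 at 315 ± 4.2 TPM. These levels rest on the longest annotated coding transcript, 11523 bases for EIF4E. Which transcript forms these cells make was not tested. Together the 73 genes took 4.24 ± 0.088% of all counts in double knockdown, 3.7 ± 0.26% in Msi1 knockdown, 3.87 ± 0.27% in Msi2 knockdown and 4.09 ± 0.25% in control shRNA libraries (SD, n = 3 each). EEF1A1 alone made up 41.7 to 46.2% of these counts.

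Many mRNAs of the translation machinery start with a C followed by a run of pyrimidines, the 5′ terminal oligopyrimidine (TOP) motif through which mTOR governs their translation. Starts annotated by RefSeq (GRCh38.p14) were found for 59 of the 73 genes. Of these, 13 (22.0%) began with a C followed by at least 4 bases that are each C or T, against 5.14% of 27305 genes, a search chosen after the starts had been seen. Shown are the 30 bases around the start of EEF1A1, EEF2 and other genes with such a run that are described below. EIF4A1, the counterpart of EIF4A2, is shown as well. EEF1G, above EEF2 in TPM, has no such run at its annotated start and is not shown. EEF1B2, with a run of 16 bases at an annotated start, is also not shown. The start is the 11th base, and capitals mark the C and the pyrimidine run after it.
EEF1A1, chr6:73521013-73521042, minus strand: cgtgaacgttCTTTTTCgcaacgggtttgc
EEF2, chr19:3985444-3985473, minus strand: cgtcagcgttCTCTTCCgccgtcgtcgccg
EIF4A2, chr3:186783567-186783596, plus strand: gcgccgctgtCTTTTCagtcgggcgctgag
EIF4B, chr12:53006446-53006475, plus strand: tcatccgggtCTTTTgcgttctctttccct
EIF3F, chr11:7987327-7987356, plus strand: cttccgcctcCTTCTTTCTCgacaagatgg
EIF3K, chr19:38619178-38619207, plus strand: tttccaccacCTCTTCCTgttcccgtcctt
EIF2S3, chrX:24054946-24054975, plus strand: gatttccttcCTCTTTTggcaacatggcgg
EIF2A, chr3:150546777-150546806, plus strand: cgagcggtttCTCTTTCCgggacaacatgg
EIF2D, chr1:206612446-206612475, minus strand: ccagccgggcCCTTTTCgcggccgggcccc
EIF4A1, chr17:7572815-7572844, plus strand: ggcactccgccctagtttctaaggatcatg
EIF4A1 has no such run at its annotated start, and EIF4A2 does. Of the 12 tested genes with the run, 4 were higher and 1 lower in double knockdown, 1 higher and 4 lower in Msi1 knockdown, and 1 higher and 1 lower in Msi2 knockdown than in control shRNA. Of all genes, 26.6% were higher and 25.3% lower in double knockdown. The shares were 18.5% and 20.9% in Msi1 knockdown, and 16.7% and 13.6% in Msi2 knockdown. Whether genes with the run differ from all genes was not tested. A separate list held 10 well-known TOP mRNAs among these factors: EIF3E, EIF3F, EIF3H, EIF4B, EEF1A1, EEF1B2, EEF1D, EEF1G, EEF2 and PABPC1. The search found the run for EEF1A1, EEF1B2, EEF2, EIF3F and EIF4B, and not for EEF1G. The set of starts searched did not include EIF3E, EIF3H, EEF1D or PABPC1, so the run was not looked for in these genes. Of the 10, 5 rose in double knockdown and none fell (50%, beside 26.6% of all genes higher), and 1, EIF4B, fell in each single knockdown. With a covariate for the library axis described above, none of those 5 was called. EIF4B (-0.21, edgeR adjusted p = 0.00185) and EEF1A1 (-0.17, 0.0239) were then called lower in double knockdown. That axis was drawn from the spread within groups of these same counts, so adding it lowers the spread by construction. Here and below, adjusted p-values with the covariate can thus be too small, and calls gained with it are no separate evidence.

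In double knockdown, 33 of the 61 tested translation factors rose and 3 fell against control shRNA at an edgeR adjusted p under 0.05. This was 54.1% higher and 4.92% lower, beside 26.6% higher and 25.3% lower (51.9% called) among all 15021 genes, and the median log2 change was 0.22 for the factors and -0.02 for all genes. The Msi1 knockdown showed the other balance, with 4 higher and 12 lower (6.56% and 19.7%, beside 18.5% and 20.9% of all genes). In Msi2 knockdown, 6 rose and 5 fell (9.84% and 8.2%, beside 16.7% and 13.6% of all genes). In this model both single knockdowns called a smaller share of these factors, 26.2% and 18%, than of all genes, 39.3% and 30.3%. Without control replicate 1 the calls numbered 10 in Msi1 knockdown and 5 in Msi2 knockdown, and those in Msi2 knockdown numbered 7 without control replicate 3 or Msi2 replicate 1. Changes were small: the single knockdowns' median log2 changes were -0.05 and -0.02, and EIF4EBP2 in Msi1 knockdown was the only factor past 1 in size in the 3 comparisons with control shRNA.

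The balance in double knockdown changed little with transcript length and much with the axis that separates its libraries. The tested factors have a median transcript length of 2679 bases, against 3270 for all tested genes. With a correction for transcript length, 30 factors were higher and 7 lower (49.2% and 11.5%, beside 25.4% and 25.8% of all genes), and 28 of the 33 kept their call. With the library axis as a covariate, 14 were higher and 11 lower (23% higher, beside 20.2% of all genes), and the median change was 0.04. All 14 of those were among the 33: EEF1E1, EIF1, EIF2D, EIF2S1, EIF3B, EIF3J, EIF3K, EIF4A1, EIF4EBP1, EIF4G1, EIF4H, EIF5A2, EIF6 and PABPC4. EIF4A2, EIF4EBP2 and PABPC1L stayed lower. Because the axis is nearly the same division of libraries as the double knockdown, the general rise of these factors and that axis cannot be told apart. With the covariate the balance in Msi1 knockdown turned to 15 higher and 9 lower (39.3% called, beside 42.8% of all genes), and in Msi2 knockdown 16 were higher and 11 lower (44.3%, beside 42.5%). With the covariate, the called share of these factors was thus still below that of all genes in Msi1 knockdown, by less than in the main model. In Msi2 knockdown it was no longer smaller.

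**Figure D1:**
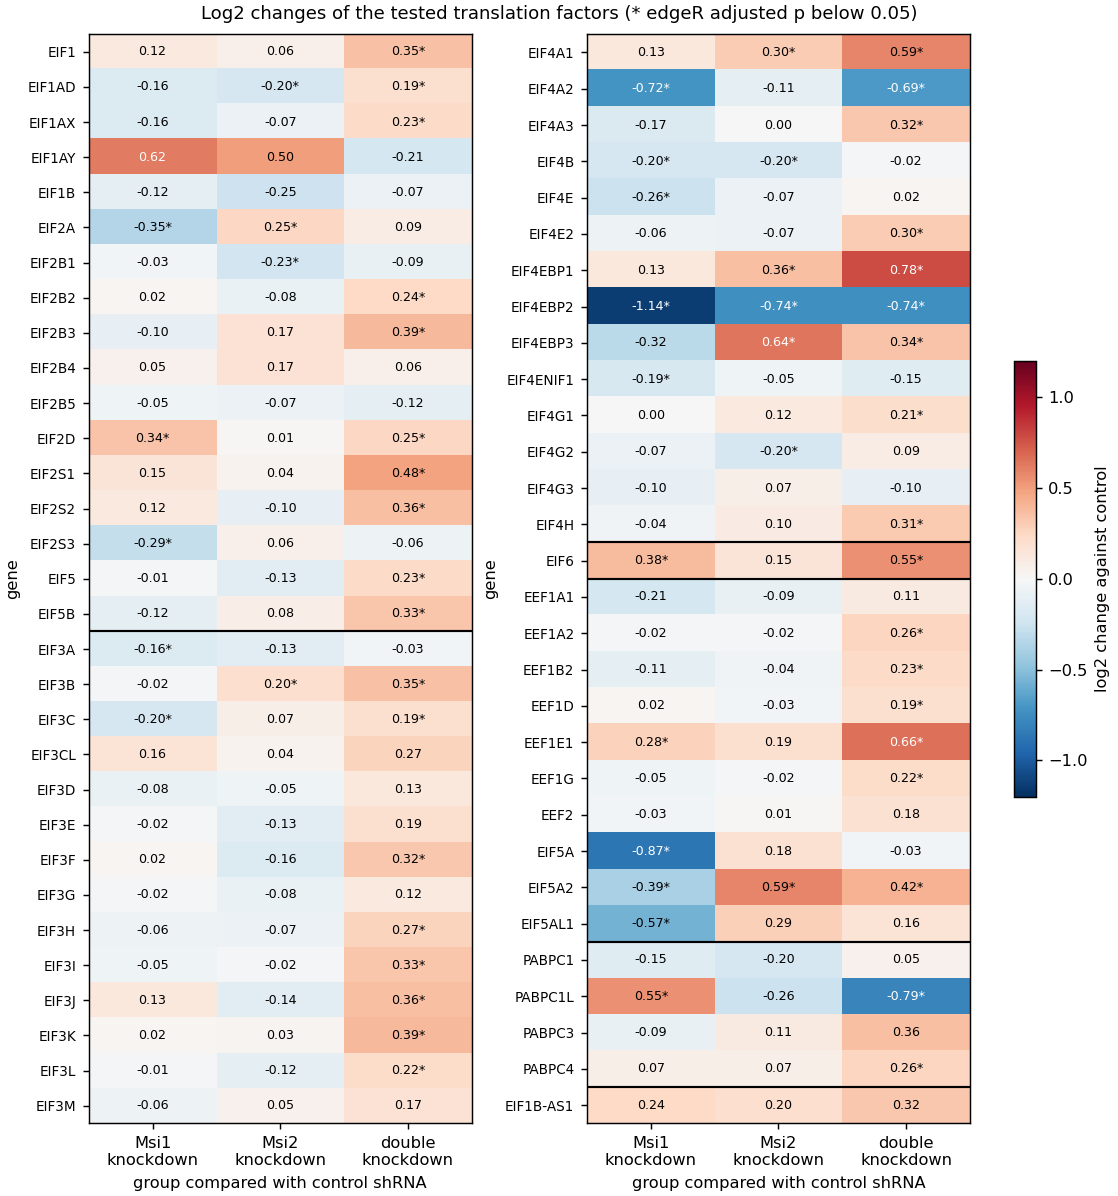
Log2 changes against control shRNA of the 61 tested translation factors in double, Msi1 and Msi2 knockdown, arranged by role; an asterisk marks an edgeR adjusted p under 0.05. The double knockdown column is mostly above 0, with EIF4A2, EIF4EBP2 and PABPC1L as its 3 lower calls.

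**Figure D2:**
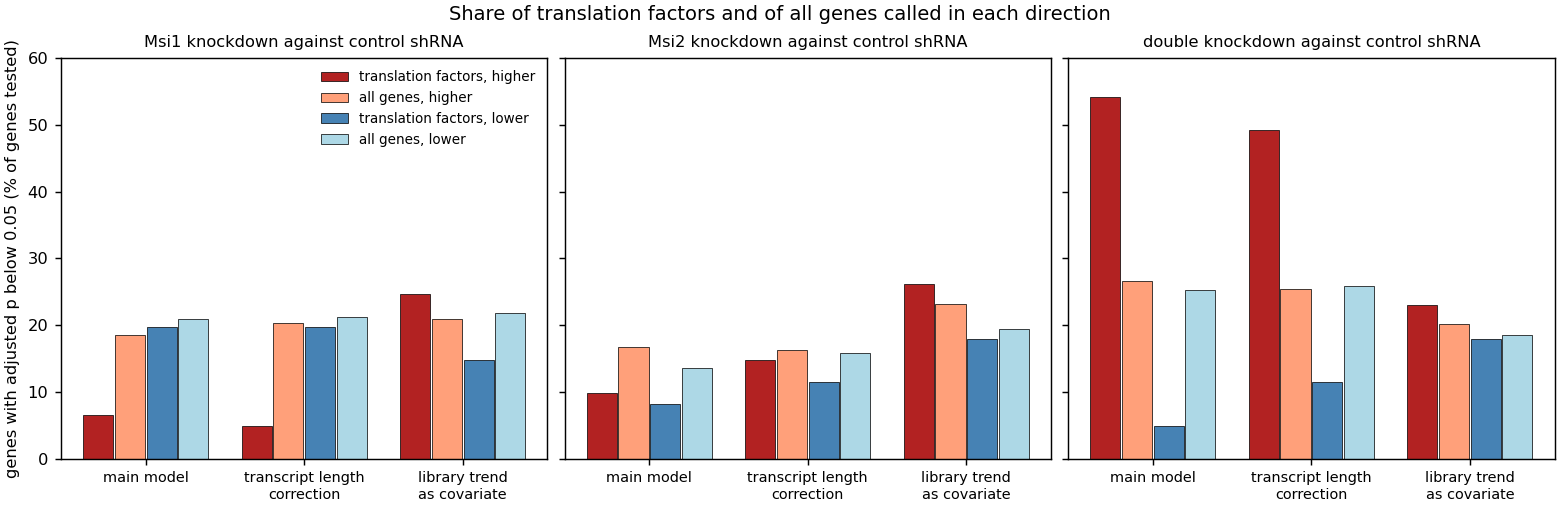
Percentage of the tested translation factors and of all tested genes called higher or lower against control shRNA, with the main model, with the transcript length correction and with the library axis (library trend in the plot) as a covariate. In double knockdown the share of factors called higher is 54.1% in the main model and 23% with the covariate.

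Among the 17 factors of the start codon and the initiator tRNA, 10 rose in double knockdown and none fell (median log2 change 0.23). Of all genes, 26.6% rose and 25.3% fell there. The Msi1 knockdown and the Msi2 knockdown each had 1 higher and 2 lower, beside 39.3% and 30.3% of all genes called. EIF2S1 encodes the α subunit of eIF2, which stress kinases phosphorylate to shut down initiation. It had 219.5, 232 and 212 CPM in double knockdown, 189.8, 166 and 173 in Msi1 knockdown, 161, 152 and 177 in Msi2 knockdown and 159, 147 and 171 in control shRNA libraries. All 3 double knockdown libraries lay above every other library, and the log2 change was 0.48 ± 0.07 (SE; edgeR adjusted p = 2.52e-05; 0.28 with the library axis as a covariate). EIF2S2, the β subunit, rose by 0.36 ± 0.08 on the log2 scale (edgeR adjusted p = 0.000996) and was not called with the covariate (0.12, 0.0877). EIF2S3, the GTP-binding γ subunit, behaved differently: it had 712, 753 and 729 CPM in double knockdown, 658, 600.3 and 609 in Msi1 knockdown, 812, 749 and 829.7 in Msi2 knockdown and 739, 757 and 789 in control shRNA libraries. In the main model it fell in Msi1 knockdown alone of the 3 (-0.29 ± 0.07, edgeR adjusted p = 0.00224), where every library was below all 9 others. With the covariate EIF2S3 was also called lower in double knockdown (-0.16, edgeR adjusted p = 0.0202). Of the 5 eIF2B subunits, which recharge eIF2 with GTP, EIF2B2 (0.24) and EIF2B3 (0.39) rose in double knockdown. Neither rise was called with the covariate (0.08 and 0.14, edgeR adjusted p = 0.499 and 0.106). EIF2B1 fell in Msi2 knockdown (-0.23 ± 0.06, edgeR adjusted p = 0.00618), with 42.2, 41.9 and 44.3 CPM against 51.1, 47.8 and 52.5 in control shRNA.

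Factors that can bring the initiator tRNA without eIF2 moved in single knockdowns. EIF2D had 64.1, 59.3 and 58.6 CPM in double knockdown, 63.9, 63 and 66 in Msi1 knockdown, 50.8, 50.4 and 52.7 in Msi2 knockdown and 49.1, 52.4 and 51.6 in control shRNA libraries. It was high in the groups that received the MSI1 shRNA, rising by 0.25 ± 0.06 on the log2 scale in double knockdown (edgeR adjusted p = 0.0014) and by 0.34 ± 0.06 in Msi1 knockdown (0.000153). EIF2A, a separate protein that is no subunit of eIF2, had 105, 112 and 109 CPM in double knockdown, 83.6, 77.3 and 79.7 in Msi1 knockdown, 122, 109 and 132 in Msi2 knockdown and 104, 101 and 100.5 in control shRNA libraries. It fell in Msi1 knockdown (-0.35 ± 0.07, edgeR adjusted p = 0.000398) and rose in Msi2 knockdown (0.25 ± 0.07, 0.00798), and neither single knockdown overlapped control shRNA. EIF1AD, a protein with an eIF1A-like fold, fell in Msi2 knockdown (-0.20 ± 0.06, edgeR adjusted p = 0.0243) and rose in double knockdown (0.19 ± 0.06, 0.0214). Its rise in double knockdown was not called with the library axis as a covariate (0.08, edgeR adjusted p = 0.408). The Msi2 call for EIF1AD was lost without control replicate 1 (0.104), control replicate 3 (0.0739), Msi2 replicate 1 (0.0718) or Msi2 replicate 2 (0.0513), and with thinned libraries (0.14).

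The 13 subunits of eIF3, A to M, share the assembly of the initiation complex on the small subunit. In double knockdown 8 of the 13 rose and none fell (61.5%, beside 26.6% of all genes higher, with a median log2 change of 0.22). Of all genes, 39.3% were called in Msi1 knockdown and 30.3% in Msi2 knockdown. The single knockdowns called few: EIF3A (-0.16, not called with the length correction) and EIF3C (-0.20, not called with the library axis as a covariate) fell in Msi1 knockdown, and EIF3B rose in Msi2 knockdown. EIF3B, a core scaffold of the complex, had 563, 534 and 523 CPM in double knockdown, 445, 403 and 404 in Msi1 knockdown, 498, 459.7 and 506 in Msi2 knockdown and 426, 420.2 and 425 in control shRNA libraries. Its change was 0.35 ± 0.07 in double knockdown (SE; edgeR adjusted p = 0.000222) and 0.20 ± 0.07 in Msi2 knockdown (0.0259), where the call was lost without any 1 of the control libraries, Msi2 replicate 1 or 3, or double knockdown replicate 2 or 3 (0.0501 to 0.104). EIF3K, a peripheral subunit, had 189.5, 171 and 166 CPM in double knockdown, 149.9, 127 and 131 in Msi1 knockdown, 138, 127 and 145 in Msi2 knockdown and 132, 127 and 144 in control shRNA libraries. It had the largest rise of the subunits in double knockdown (0.39 ± 0.08, edgeR adjusted p = 0.000302), with no overlap with the 9 other libraries. EIF3J, a loosely bound subunit, had 137, 139.8 and 136 CPM in double knockdown, 128, 112 and 113 in Msi1 knockdown, 96.6, 88.5 and 107 in Msi2 knockdown and 106, 104 and 113 in control shRNA libraries. Its change was 0.36 ± 0.07 in double knockdown (edgeR adjusted p = 0.000322). After adding the library axis as a covariate, EIF3B (0.23), EIF3J (0.17) and EIF3K (0.18) were the subunits whose rise in double knockdown was still called. EIF3C and EIF3CL are near-identical copies, so reads could be divided between them in ways that these counts do not show.

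**Figure D3:**
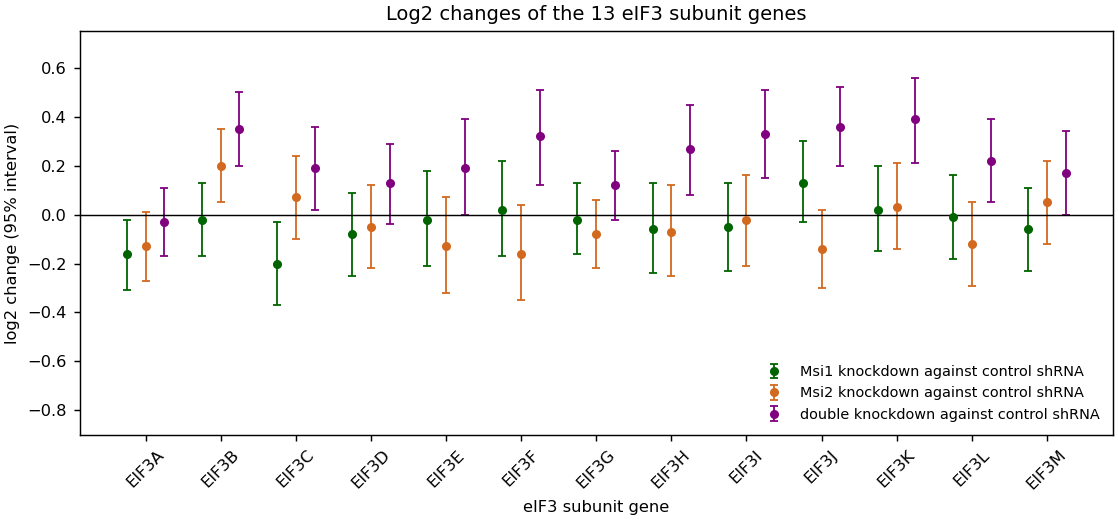
Log2 changes of the 13 eIF3 subunits in double, Msi1 and Msi2 knockdown against control shRNA, with 95% intervals from the edgeR model. In double knockdown 8 subunits lie above 0 with an adjusted p under 0.05, from EIF3C at 0.19 to EIF3K at 0.39, and EIF3A lies at -0.03. Of all genes, 26.6% were called higher there.

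The eIF4 group held the factor with the largest change against control shRNA, EIF4EBP2 in Msi1 knockdown. Of its 14 tested genes, 7 rose and 2 fell in double knockdown (median 0.15), none rose and 5 fell in Msi1 knockdown, and 3 rose and 3 fell in Msi2 knockdown. Among all genes, 26.6% rose and 25.3% fell in double knockdown, and 39.3% and 30.3% were called in Msi1 and Msi2 knockdown. EIF4EBP2, a repressor that binds eIF4E until mTOR phosphorylates it, was lower in every knockdown. It had 114, 116 and 117 CPM in double knockdown, 91.8, 84.1 and 87.1 in Msi1 knockdown, 119.7, 105 and 121 in Msi2 knockdown and 212, 165 and 203 in control shRNA libraries. All 9 knockdown libraries were below the lowest control library. The log2 change was -0.74 ± 0.08 in double knockdown (SE; edgeR adjusted p = 4.26e-07), -1.14 ± 0.08 in Msi1 knockdown (2.34e-09) and -0.74 ± 0.08 in Msi2 knockdown (1.11e-06).

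EIF4EBP1, the paralogous repressor, moved the other way. It had 74.4, 67.8 and 64.5 CPM in double knockdown, 51.3, 40.7 and 40.5 in Msi1 knockdown, 52, 45.4 and 57.6 in Msi2 knockdown and 38.3, 43 and 39.3 in control shRNA libraries. It rose by 0.78 ± 0.10 in double knockdown on the log2 scale (edgeR adjusted p = 3.14e-06; 0.51 with the library axis as a covariate) and by 0.36 ± 0.10 in Msi2 knockdown (0.00842, but 0.0663 without control replicate 1). In Msi1 knockdown its change was 0.13 (edgeR adjusted p = 0.298; 0.28 with an adjusted p of 0.00371 with the covariate). Per length, EIF4EBP1 was 4.25 ± 0.37 times as abundant as EIF4EBP2 in double knockdown, 3.57 ± 0.35 times in Msi1 knockdown, 3.18 ± 0.18 times in Msi2 knockdown and 1.51 ± 0.31 times in control shRNA libraries (SD, n = 3 each). The size of this ratio rests on the transcript lengths used, 1020 bases for EIF4EBP1 and 7257 for EIF4EBP2. In CPM, EIF4EBP2 was the higher of the pair in every group. The highest control ratio, 1.86, was below the lowest in any knockdown library, 3.07. EIF4EBP3, the least abundant of the 3 repressors, rose in Msi2 knockdown (0.64 ± 0.13, edgeR adjusted p = 0.00077). In double knockdown it was at 0.34 ± 0.13 (0.0354), a value of 0.06 (0.655) with the length correction and 0.04 (0.859) with the covariate, and DESeq2 and the GC correction did not call it either. It shares sequence with an ANKHD1 read-through transcript, so its counts are uncertain.

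The 2 eIF4A helicases also diverged. EIF4A1, the main cytoplasmic helicase, had 1489, 1402 and 1349 CPM in double knockdown, 1118, 976 and 988 in Msi1 knockdown, 1176, 1052 and 1237 in Msi2 knockdown and 927, 928 and 959 in control shRNA libraries. All 9 knockdown libraries were above the controls, and the log2 change was 0.59 ± 0.08 in double knockdown (SE; edgeR adjusted p = 5.83e-06) and 0.30 ± 0.08 in Msi2 knockdown (0.00705, but 0.0503 without control replicate 1). In Msi1 knockdown it was 0.13 ± 0.08 (0.202; 0.25 with an adjusted p of 6.71e-05 with the library axis as a covariate). EIF4A2, a helicase also linked to microRNA repression, had 555, 581 and 592 CPM in double knockdown, 557, 582 and 558 in Msi1 knockdown, 862, 850.5 and 882 in Msi2 knockdown and 914, 921 and 958 in control shRNA libraries. It was low in the groups that received the MSI1 shRNA, at -0.69 ± 0.06 in double knockdown (edgeR adjusted p = 6.95e-08) and -0.72 ± 0.06 in Msi1 knockdown (4.67e-08), and its change in Msi2 knockdown was -0.11 ± 0.06 (0.233; called by DESeq2 at 0.0479). Per length, EIF4A1 was 2.69 ± 0.22 times as abundant as EIF4A2 in double knockdown, 1.99 ± 0.19 times in Msi1 knockdown, 1.46 ± 0.094 times in Msi2 knockdown and 1.1 ± 0.0067 times in control shRNA libraries. The ratio was 2.49 to 2.93 in double knockdown, 1.83 to 2.19 in Msi1 knockdown, 1.35 to 1.53 in Msi2 knockdown and 1.09 to 1.11 in control shRNA libraries, so no 2 groups overlapped. The double knockdown changes of both helicases were also called with the covariate, at 0.41 for EIF4A1 and -0.70 for EIF4A2.

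**Figure D4:**
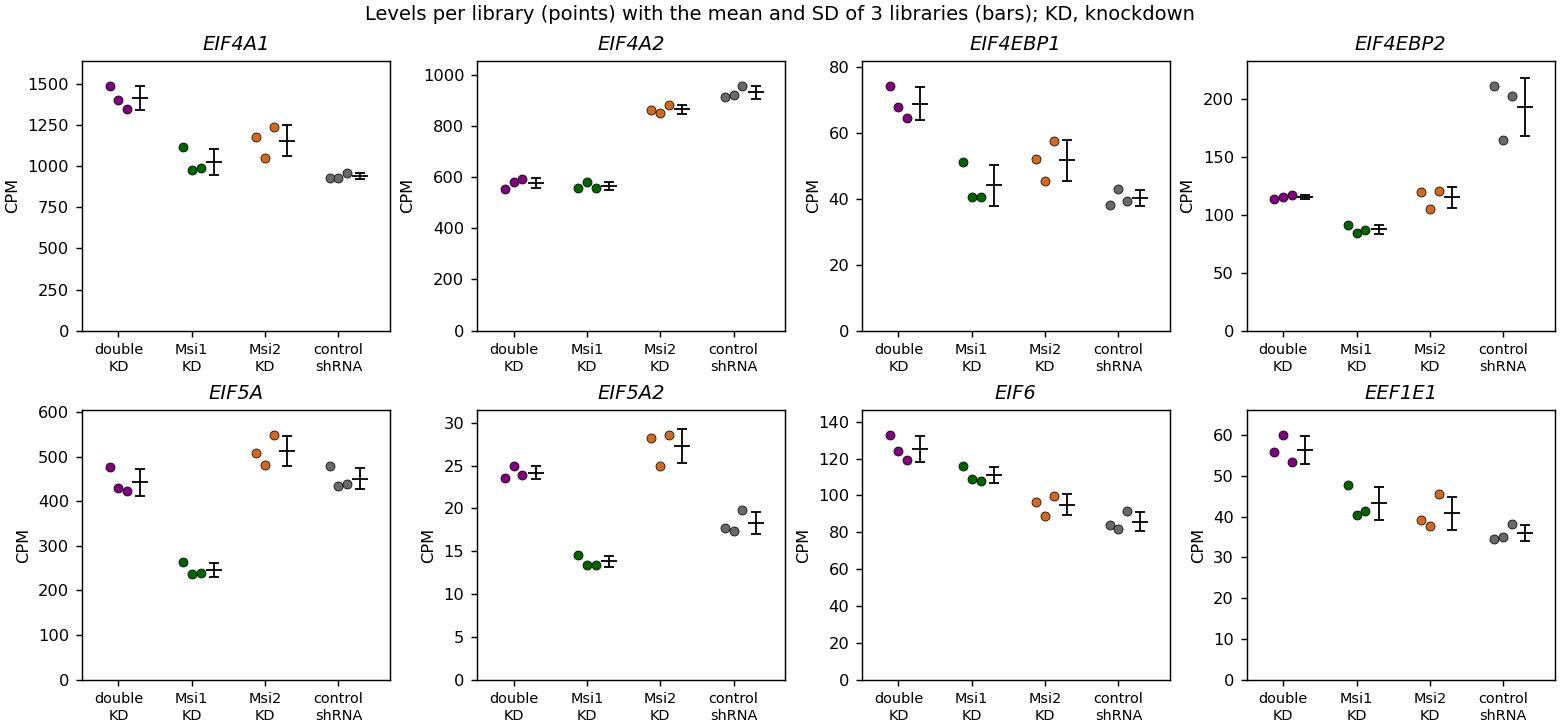
Levels in CPM in each library of EIF4A1, EIF4A2, EIF4EBP1, EIF4EBP2, EIF5A, EIF5A2, EIF6 and EEF1E1, with the mean and SD of 3 libraries per group, on axes that start at 0. EIF4A2 is at 555 to 592 CPM in double and Msi1 knockdown and at 914 to 958 CPM in control shRNA, while EIF4EBP2 is low in all 3 knockdowns.

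**Figure D5:**
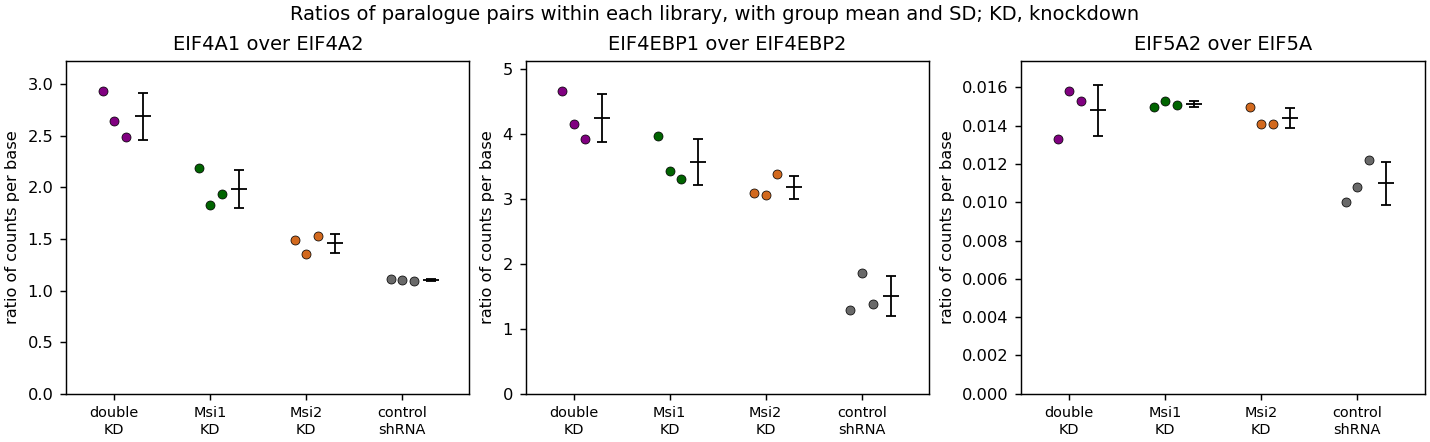
Ratios of counts per base of transcript between paralogues in each library, with the mean and SD of 3 libraries per group. EIF4A1 over EIF4A2 averages 2.69 in double knockdown and 1.1 in control shRNA, and EIF4EBP1 over EIF4EBP2 averages 4.25 and 1.51.

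The cap-binding EIF4E had 90.8, 90.7 and 90.3 CPM in double knockdown, 79.6, 72.1 and 72.6 in Msi1 knockdown, 84.7, 80.7 and 89.7 in Msi2 knockdown and 93.8, 83.9 and 90.3 in control shRNA libraries. It fell in Msi1 knockdown (-0.26 ± 0.06, edgeR adjusted p = 0.00312) and differed from control shRNA by 0.02 in double knockdown, with a 95% interval of -0.12 to 0.17. With the length correction EIF4E was called higher in double knockdown (0.19, edgeR adjusted p = 0.0499). With the library axis as a covariate it was at -0.13 there (0.0894). EIF4ENIF1, which carries eIF4E into the nucleus, fell in Msi1 knockdown, and EIF4E2, a cap-binding relative that represses translation, rose by 0.30 ± 0.08 in double knockdown (edgeR adjusted p = 0.00329). With the library axis as a covariate, EIF4ENIF1 was not called in Msi1 knockdown (-0.13, edgeR adjusted p = 0.1) and was called lower in double knockdown (-0.24, 0.0125). EIF4E2 was not called in double knockdown with the covariate (0.08, edgeR adjusted p = 0.41). EIF4G1, the scaffold between eIF4E, eIF4A and poly(A)-binding protein, had 894, 873 and 846 CPM in double knockdown, 767, 736 and 753 in Msi1 knockdown, 860.3, 797 and 804 in Msi2 knockdown and 749, 765 and 743 in control shRNA libraries. It rose in double knockdown (0.21 ± 0.07, edgeR adjusted p = 0.0109) and was at 0.00 in Msi1 knockdown (0.996). Its paralogue EIF4G3 was not called in any knockdown (-0.10 in double, -0.10 in Msi1 and 0.07 in Msi2 knockdown). EIF4G2, which lacks the site for eIF4E, had 813, 732 and 829.7 CPM in Msi2 knockdown and 943, 856 and 934 in control shRNA libraries (-0.20 ± 0.07, edgeR adjusted p = 0.0429), which was no longer called without control replicate 1 or 3, Msi1 replicate 3, Msi2 replicate 1 or 2, or any double knockdown library (0.0526 to 0.157). EIF4B, which stimulates eIF4A, had 547, 545 and 536 CPM in double knockdown, 518, 456 and 457 in Msi1 knockdown, 490, 433 and 504 in Msi2 knockdown and 549.8, 515 and 581 in control shRNA libraries. It fell by 0.20 on the log2 scale in Msi1 knockdown (edgeR adjusted p = 0.0397), where its libraries overlapped the controls, and in Msi2 knockdown (0.0447). The Msi1 call was lost with the library axis as a covariate (-0.07, 0.232) and with the GC correction, and the Msi2 call was lost without any 1 of these same 8 libraries (0.057 to 0.174).

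EIF6, which keeps the large ribosomal subunit from joining too early, had 133, 124 and 119 CPM in double knockdown, 116, 109 and 108 in Msi1 knockdown, 96.6, 88.7 and 99.7 in Msi2 knockdown and 83.9, 81.9 and 91.5 in control shRNA libraries. The double and Msi1 knockdown libraries were above all control libraries, and those of Msi2 knockdown overlapped them. Its log2 change was 0.55 ± 0.07 in double knockdown (SE; edgeR adjusted p = 1.58e-06; 0.40 with the library axis as a covariate), 0.38 ± 0.07 in Msi1 knockdown (0.000165) and 0.15 ± 0.07 in Msi2 knockdown (0.0915).

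Of the 10 tested elongation factors, 6 rose in double knockdown and none fell (median 0.20), 1 rose and 3 fell in Msi1 knockdown, and 1 rose in Msi2 knockdown. The shares of all genes were 26.6% higher and 25.3% lower in double knockdown, and 39.3% and 30.3% called in Msi1 and Msi2 knockdown. EEF1E1, a small protein of the multi-tRNA synthetase complex, had 55.9, 60.1 and 53.3 CPM in double knockdown, 47.8, 40.4 and 41.5 in Msi1 knockdown, 39.1, 37.8 and 45.5 in Msi2 knockdown and 34.6, 35.1 and 38.1 in control shRNA libraries. Its rise was 0.66 ± 0.08 in double knockdown (SE; edgeR adjusted p = 2.13e-06) and 0.28 ± 0.08 in Msi1 knockdown (0.0117, but 0.0691 without control replicate 1 and 0.0552 without Msi1 replicate 1). EEF1A1 had 20064, 18176 and 19048 CPM in double knockdown, 17021, 14600.4 and 14463 in Msi1 knockdown, 16961, 14729 and 18232 in Msi2 knockdown and 17607, 15982 and 19667 in control shRNA libraries. The most abundant factor was not called in any knockdown: its log2 change in double knockdown was 0.11 ± 0.11, with an interval of -0.15 to 0.36, and it was -0.17 (edgeR adjusted p = 0.0239) with the library axis as a covariate. EEF2 was likewise not called (0.18 ± 0.09 in double knockdown, edgeR adjusted p = 0.107; DESeq2 0.036). The exchange factor subunits EEF1B2 (0.23), EEF1D (0.19) and EEF1G (0.22) and the tissue-restricted paralogue EEF1A2 (0.26 ± 0.08, edgeR adjusted p = 0.0147) rose in double knockdown. None of these 4 kept the call with the library axis as a covariate or with the length correction, where EEF1B2 was at 0.01 (edgeR adjusted p = 0.85), EEF1D at 0.12 (0.0917), EEF1G at 0.06 (0.445) and EEF1A2 at 0.15 (0.0786). EEF1A2 was also not called without control replicate 1 (0.0565), control replicate 2 (0.0851) or double knockdown replicate 1 (0.0888).

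EIF5A and EIF5A2 encode the hypusine-bearing factors that help ribosomes through difficult peptide bonds. EIF5A had 477, 429 and 422 CPM in double knockdown, 264, 236 and 239 in Msi1 knockdown, 507, 481 and 549 in Msi2 knockdown and 478, 435 and 439 in control shRNA libraries. It was lowest in Msi1 knockdown, at -0.87 ± 0.07 against control shRNA on the log2 scale (edgeR adjusted p = 2.66e-08). Its change was -0.03 ± 0.07 in double knockdown (0.793; called lower with the length correction, at -0.18 and 0.0113, and with the library axis as a covariate, at -0.19 and 0.0114) and 0.18 ± 0.07 in Msi2 knockdown (0.0676). EIF5A2 had 23.6, 25 and 23.9 CPM in double knockdown, 14.6, 13.4 and 13.4 in Msi1 knockdown, 28.2, 25 and 28.6 in Msi2 knockdown and 17.7, 17.4 and 19.8 in control shRNA libraries. It rose in double knockdown (0.42 ± 0.08, edgeR adjusted p = 0.000142) and in Msi2 knockdown (0.59 ± 0.07, 7.88e-06) and fell in Msi1 knockdown (-0.39 ± 0.08, 0.000627). Per length, EIF5A2 was a small fraction of EIF5A: its ratio to EIF5A averaged 0.0148 in double knockdown, 0.0152 in Msi1 knockdown, 0.0144 in Msi2 knockdown and 0.011 in control shRNA libraries. EIF5AL1, a near-identical copy of EIF5A, also fell in Msi1 knockdown (-0.57 ± 0.13, edgeR adjusted p = 0.00161), and its counts cannot be told apart from reads of EIF5A.

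Of the cytoplasmic poly(A)-binding proteins, 4 of 8 genes were tested. PABPC1, the main one and the partner through which Musashi1 is known to act, had 2294, 2288 and 2278 CPM in double knockdown, 2122, 1903 and 1942 in Msi1 knockdown, 1951, 1756 and 2069.8 in Msi2 knockdown and 2285, 2078 and 2263 in control shRNA libraries. It was not called in any knockdown, and its change in double knockdown was 0.05 with a 95% interval of -0.14 to 0.24. In Msi2 knockdown, where it was -0.20 ± 0.08 (edgeR adjusted p = 0.073), 10 of the alternatives called it, DESeq2 (0.00912) and the replicate block (0.0362) among them. PABPC4, a second cytoplasmic form, had 368, 367 and 357 CPM in double knockdown, 331, 311 and 316 in Msi1 knockdown, 324, 310.1 and 326 in Msi2 knockdown and 307, 304 and 303 in control shRNA libraries. It rose in double knockdown by 0.26 ± 0.06 (edgeR adjusted p = 0.00115; 0.19 with the library axis as a covariate). PABPC1L, the form known from oocytes, had 33.3, 34 and 36.3 CPM in double knockdown, 75.8, 96.8 and 89.6 in Msi1 knockdown, 52.3, 60.6 and 36.2 in Msi2 knockdown and 56.3, 69.9 and 51 in control shRNA libraries. It fell in double knockdown (-0.79 ± 0.18, edgeR adjusted p = 0.00377; -0.28 with the covariate) and rose in Msi1 knockdown (0.55 ± 0.18, 0.0284), where 7 alternatives lost the call (0.0501 to 0.0927), among them leaving out control replicate 1 (0.0753), control replicate 3 (0.0733), Msi1 replicate 2 (0.0927) or Msi1 replicate 3 (0.0685). The retained antisense RNA, EIF1B-AS1, was not called in any comparison, and the files do not say whether counting used strand.

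Set against each single knockdown, the double knockdown again had more of these factors higher than lower. Against Msi1 knockdown, 44 rose and 1 fell (72.1% and 1.64%, beside 29.9% and 26.2%, in all 56%, of all genes; median 0.24). Against Msi2 knockdown, 33 rose and 6 fell (54.1% and 9.84%, beside 22.7% and 22.5%, in all 45.2%, of all genes; median 0.22). EIF5A (0.85 ± 0.07 SE, edgeR adjusted p = 2.87e-07), EIF5A2 (0.81 ± 0.07) and EIF4EBP1 (0.64 ± 0.09) had the largest rises over Msi1 knockdown, and PABPC1L the only fall (-1.34 ± 0.18, 0.000119). EIF3J (0.50 ± 0.07, edgeR adjusted p = 2.15e-05), EIF3F (0.47 ± 0.08) and EEF1E1 (0.47 ± 0.08) had the largest rises over Msi2 knockdown. EIF4A2 was lower than in Msi2 knockdown by 0.59 on the log2 scale. With the library axis as a covariate, 2 factors were higher and 1 lower against Msi1 knockdown, and 7 were higher and 8 lower against Msi2 knockdown; without Msi1 replicate 2 or 3 the calls against Msi1 knockdown were 26 and 27 in place of 45.

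The single knockdowns differed from each other at 20 of the 61 factors, with 14 higher and 6 lower in Msi2 than in Msi1 knockdown (23% and 9.84%, beside 22.3% and 18.9%, in all 41.1%, of all genes). EIF5A (1.06 ± 0.07 SE, edgeR adjusted p = 2.84e-09), EIF5A2 (0.98 ± 0.07) and EIF4A2 (0.61 ± 0.06) had the largest differences above 0. PABPC1L (-0.81 ± 0.17, edgeR adjusted p = 0.00323), EIF2D (-0.33 ± 0.06) and EIF3J (-0.27 ± 0.07) were lower in Msi2 than in Msi1 knockdown. With the library axis as a covariate, 15 were higher and 21 lower.

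The double knockdown was also compared with the sum of the 2 single log2 changes. Its level was above that sum for 29 factors and below it for 1 (47.5% and 1.64%, beside 21.3% and 19.1%, in all 40.3%, of all genes; median 0.29). EIF4EBP2 lay 1.14 ± 0.11 above the sum (SE; edgeR adjusted p = 1.51e-06): its log2 change was -0.74 in double knockdown, -1.14 in Msi1 knockdown and -0.74 in Msi2 knockdown. EIF5A lay 0.66 ± 0.10 above it (0.000136), with a change of -0.03 in double knockdown and -0.87 in Msi1 knockdown. PABPC1L was the only factor below the sum (-1.08 ± 0.25, 0.00659). With the library axis as a covariate, 2 factors were called, both above the sum, and leaving out control replicate 1, Msi1 replicate 2, Msi1 replicate 3 or Msi2 replicate 2 gave 19, 16, 18 and 19 calls in place of 30.

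Partners of these factors, 59 genes that modify or bind them or act beside them in translation, were all tested. Their values, here and in the next paragraph, are from the main model only. How far their calls depend on transcript length, the library axis or single libraries was not tested. Of the 59 partners, 25 rose and 14 fell in double knockdown (66.1% called, beside 51.9% of all genes, median 0.08). In Msi1 knockdown 8 rose and 16 fell (40.7%, beside 39.3%; median -0.07), and in Msi2 knockdown 8 rose and 14 fell (37.3%, beside 30.3%; median 0.02), so the called shares of the single knockdowns were near those of all genes. Of 15 genes that bind the poly(A)-binding protein or the cap complex, 6 rose and 4 fell in double knockdown, 1 rose and 4 fell in Msi1 knockdown, and 2 rose and 6 fell in Msi2 knockdown. PAIP1, which binds PABPC1 and stimulates translation, had 121, 129 and 122 CPM in double knockdown, 102, 89.2 and 89.2 in Msi1 knockdown, 103, 98.2 and 123 in Msi2 knockdown and 89, 72.8 and 83.4 in control shRNA libraries. It rose by 0.60 ± 0.09 in double knockdown (SE; edgeR adjusted p = 1.06e-05) and by 0.40 ± 0.09 in Msi2 knockdown (0.00138), and its inhibitory counterpart PAIP2 fell in Msi2 knockdown (-0.33 ± 0.08, 0.00438). PAN2, the nuclease that shortens poly(A) tails bound by PABPC1, had 28.3, 28.2 and 31.5 CPM in double knockdown and 52.6, 65.6 and 49.8 in control shRNA libraries (-0.94 ± 0.12, edgeR adjusted p = 1.44e-05). TOB1, an adaptor between PABPC1 and deadenylases, had 25.6, 25.9 and 27.4 CPM in Msi1 knockdown and 49, 43.1 and 44.1 in control shRNA libraries (-0.79 ± 0.07, edgeR adjusted p = 2.01e-08).

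Regulators of eIF2 and eIF4E were called in both directions. Of 6 eIF2α kinases and phosphatase subunits, 2 rose and 2 fell in double knockdown, 2 rose and 3 fell in Msi1 knockdown, and 2 rose and 4 fell in Msi2 knockdown, or 66.7%, 83.3% and 100% called, beside 51.9%, 39.3% and 30.3% of all genes. PPP1R15B, which directs a phosphatase to eIF2α, had 83.7 CPM in each double knockdown library, 94.2, 106 and 108 in Msi1 knockdown, 89.7, 97.4 and 89.4 in Msi2 knockdown and 68.5, 70.8 and 68.4 in control shRNA libraries. Its log2 change was 0.27 ± 0.06 in double knockdown (edgeR adjusted p = 0.00116), 0.56 ± 0.06 in Msi1 knockdown (7.08e-07) and 0.41 in Msi2 knockdown (5.05e-05), and no knockdown library overlapped the controls. The stress-induced counterpart PPP1R15A rose in Msi1 knockdown (0.50 ± 0.07, edgeR adjusted p = 1.04e-05), and the kinase EIF2AK3 (PERK) fell in double knockdown (-0.51 ± 0.09, 0.000182) and in Msi2 knockdown (-0.43 ± 0.09, 0.00148). Among 16 genes of mTOR signalling and the eIF4E kinases, 4 rose and 5 fell in double knockdown, 1 rose and 6 fell in Msi1 knockdown, and 1 rose and 1 fell in Msi2 knockdown. Their called shares, 56.2%, 43.8% and 12.5%, stood near or below those of all genes. MKNK1 was lower in double knockdown (-0.52 ± 0.08, edgeR adjusted p = 2.88e-05) and MKNK2 in Msi1 knockdown (-0.50 ± 0.06, 3.6e-06), both of which are kinases of eIF4E. DOHH, the second enzyme of EIF5A hypusination, had 11.8, 10.1 and 9.82 CPM in double knockdown and 5.72, 6.34 and 6.2 in control shRNA libraries (0.81 ± 0.12, edgeR adjusted p = 1.59e-05). In ribosome rescue, ZNF598, which marks collided ribosomes, rose (0.54 ± 0.07, edgeR adjusted p = 5.53e-06) and LTN1, which tags stalled nascent chains, fell (-0.71 ± 0.07, 6.01e-08) in double knockdown.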

How the data were processed

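The sorted MIA PaCa-2 cells gave 12 RNA libraries. The authors deposited 1 table of estimated counts per gene, as whole numbers; per the submitters' processing notes, CASAVA 1.4, kallisto 0.42.1 and the build hg19 were used, with no roles given. Groups came from the sample titles. R 4.3.3 with edgeR 4.0.16 kept genes by filterByExpr (minimum count 10), scaled libraries by TMM and fitted 1 robust quasi-likelihood model over 4 groups (8 residual degrees of freedom). The 7 comparisons were adjusted by Benjamini-Hochberg over 15021 genes at 0.05. The script was tested on simulated data. Errors of log2 changes are model standard errors. An exact permutation test of 3 against 3 cannot go below p = 0.1, so none was run for single genes. Levels per length used the longest protein-coding transcript of GENCODE 29. The library axis is the first principal component of deviations from group means, over genes above a mean log2 CPM of 3. It comes from the same counts, so adjusted p-values of fits with it as a covariate can be too small. Named genes were, per comparison, the 5 (with control) or 3 (other comparisons) factors with the largest called change in each direction and a group mean of 10 CPM or more, plus listed genes of each role; EIF2AK3 in double knockdown and genes given only by a change were added after their values were seen. Partners were named likewise, 3 per direction. Alternatives were DESeq2 1.42.0, other size factors, filters and thinning, length and GC corrections, the library axis, a replicate block and leaving out each library; the GC correction was added after seeing the data. Members and lists were chosen with earlier results of these data known. Short sequences are reference sequence of GRCh38.p14, whose coordinates were not mixed with the deposited counts. Libraries with the same replicate number had correlated deviations from their group means for control shRNA and Msi2 knockdown (0.18, 0.68 and 0.41), but not in every pair of any other 2 groups; this pairing comes from the data, not the labels.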

Additional observations from a re-analysis of the deposited data

Results flagged for a closer look

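Results are listed here where the effect of both shRNAs together differed from the sum of their single effects, by the edgeR test of that difference; groups of 3 libraries are too small for a check of single libraries. The level in double knockdown was above the sum on the log2 scale for EIF4EBP2 (1.14), EIF5A (0.66), EIF1AD (0.54), EIF3F (0.45), EEF1A1 (0.41), PABPC1 (0.40), EIF4B (0.39), EIF3J (0.37), EIF4G2 (0.36), EIF4E (0.35), EEF1A2 (0.30) and EIF2S1 (0.29). PABPC1L was below it (-1.08). With the library axis as a covariate, 2 of the 61 factors were called, against 30 without it, and the part of that axis in these values was not tested further.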

How the results depend on the processing

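For 82 results on named genes, 930 values with 1 library left out kept their call or stayed not called, 50 lost the call and 4 gained it. Under the other alternatives 773 kept their call or stayed not called, 24 lost the call and 16 gained it. A further 3 changed sign and were called in the main model or in the alternative. Sign changes of values called in neither were counted as kept. PABPC1 in double knockdown, at 0.05 and at -0.12 with the library axis as a covariate, is an example. With the library axis as a covariate those 3 were PABPC1L in double against Msi2 knockdown (0.09), EEF1A1 in double knockdown against control shRNA (-0.17) and EEF1A2 in Msi1 knockdown against control shRNA (0.14), and the cause was not tested. That covariate gave 27 called factors in Msi2 knockdown (11 in the main model), 3 in double against Msi1 knockdown (45), 15 in double against Msi2 knockdown (39), 36 in Msi2 against Msi1 knockdown (20) and 2 for the departure from the sum (30). Leaving out each library in turn gave 25 to 38 called factors in double knockdown, 10 to 22 in Msi1 knockdown and 5 to 16 in Msi2 knockdown, 26 to 49 in double against Msi1 knockdown, 27 to 42 in double against Msi2 knockdown, 14 to 24 in Msi2 against Msi1 knockdown and 16 to 40 for the departure from the sum. Split by direction, calls in Msi2 knockdown were 7 higher and 9 lower with DESeq2, 6 and 8 with a stricter filter and 6 and 2 with none, and in Msi1 knockdown 6 and 10 with the GC correction. Same-number libraries deviated together in all 3 pairs of control shRNA and Msi2 knockdown, as seen in the data and not given by the labels. The replicate block fitted a common effect of each number over all 12 libraries, so it is not a paired test of those groups. In Msi2 knockdown against control shRNA it changed the call of PABPC1 and of no other named gene. Over all groups the numbers did not pair the libraries: 10 of 18 pairs had correlated deviations over 0.1, with a range of -0.54 to 0.7, and 7 of 12 libraries correlated best with their own number. The replicate block gave 39, 16 and 15 called factors in double, Msi1 and Msi2 knockdown against control shRNA, 48 and 43 in double against Msi1 and Msi2 knockdown, 22 in Msi2 against Msi1 knockdown and 35 for the departure from the sum. The smallest control library, with 10948191 counts, limits the low-count factors most.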
